A study of Mus musculus with 12 samples.

Results

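The clustered protocadherins are a family of cell-surface adhesion proteins encoded by 3 adjacent gene arrays, named alpha, beta and gamma. They were described here in RNA-seq counts from a mouse series on the deletion of Impdh2, the enzyme that commits purine synthesis to guanine nucleotides. Members were the protein-coding genes whose symbols carry the Pcdha, Pcdhac, Pcdhb, Pcdhga, Pcdhgb or Pcdhgc stem, and 57 of the 51327 gene identifiers common to all deposited tables were members. They comprised 12 alpha variable genes, 2 alpha C-type genes, 22 beta genes, 12 gamma A genes, 6 gamma B genes and 3 gamma C-type genes. The group was chosen by its Prx-cKO against WT forelimb levels, so those values are given as a description and the tests on them support nothing here. The culture values took no part in that choice.

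The 12 libraries formed 6 groups of 2. Forelimbs were taken at embryonic day E12.5 from WT embryos and from Prx-cKO embryos, in which Impdh2 was removed from limb mesenchymal progenitors by a Prx-driven knockout, so that other cells of the limb kept the gene. Cultures were grown from bone marrow of WT mice or of LysM-cKO mice, which lack Impdh2 in the myeloid lineage. The protocol, worded alike for all 8 cultures, expanded marrow cells of both genotypes for 3 days in medium conditioned by L929 cells. That medium was equivalent to 20 ng/ml of the macrophage growth factor M-CSF. The protocol then states stimulation with RANKL, the osteoclast-inducing cytokine, at 40 ng/ml. The sample titles split the cultures into R40D3 and R0D3, which are used as names only, because all 8 carry 1 treatment label. Whether the R0D3 cultures received RANKL is not given in the sources used here. The ages of the mice, and whether replicates were separate animals, are not given in the sources used here, so the p-values measure the spread between these samples, which may be technical.

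Each alpha or gamma gene consists of its own large variable exon, with its own promoter, which is spliced to a few constant exons at the end of the array. The variable exon encodes the extracellular cadherin repeats, the transmembrane segment and the start of the cytoplasmic tail, and the constant exons encode the shared tail. Beta genes are single-exon genes with no constant exons. In neurons, individual cells express different combinations of these promoters, chosen with the help of the DNA-looping proteins CTCF and cohesin and of DNA methylation, and matching between the extracellular domains lets a neuron distinguish its own branches from those of others. The C-type genes, at the end of the alpha and gamma arrays, are regulated differently from the variable genes and several are expressed broadly.

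All members lie on the plus strand of chromosome 18. In GENCODE M21 (GRCm38) the alpha array spans 36930184 to 37187661, the beta array 37264938 to 37524479 and the gamma array 37661793 to 37841873. Exons are shared by design. Each alpha gene has between 2860 and 2864 exonic bases in common with other alpha genes, of 5206 to 7535 in all. Each gamma gene shares between 2116 and 3157 of 4615 to 7627 exonic bases. Only 2 of the 22 beta genes, Pcdhb21 and Pcdhb22, overlap each other, by 455 bases. Of the 3034 exonic bases of Pcdhb12, 1107 belong to no other annotated gene. How the authors assigned reads from the constant exons, or from transcripts on the opposite strand, is not given in the sources used here. Counts of single alpha and gamma genes, and of Pcdhb12, are uncertain for that reason. The array also holds Pcdhgb8, annotated as a pseudogene. It is no member, but its counts are kept in every gamma total below because it shares the constant exons, which gives 22 gamma rows. The 2 identifiers named Pcdha11 are kept apart. No row carries the symbol Pcdha10, and the first of these 2 lies between Pcdha9 and the other, where Pcdha10 would fall in order.

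Forelimb libraries held 28892215 to 69466572 counts each and culture libraries 16009146 to 19221865. Levels are in CPM, counts scaled to the TMM-adjusted library size, and are divided by exonic length in kilobases where genes are compared with each other. Impdh2 stood at 260.4 and 272.3 CPM in WT and 169.7 and 199.4 CPM in Prx-cKO forelimbs, and at 22.3 to 28.2 CPM in WT and 7.03 to 8.38 CPM in LysM-cKO cultures, so its level followed the labels in both. All 10 limb mesenchyme markers were detected in every forelimb library, and all 9 macrophage markers in every culture. The 12 osteoclast markers were all detected at R40D3. At R0D3 they summed to 623.1 to 798.1 CPM, with 1 to 3 of them at 0 counts. In bulk samples such as these, fewer cells of a type and less RNA per cell cannot be told apart.

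In the forelimb the gamma array carried most of the family's counts, the beta array far fewer and the alpha array almost none. The gamma rows summed to 334.4 and 304.8 CPM in WT and to 306.3 and 276.3 CPM in Prx-cKO. The beta genes summed to 43.7 and 40.1 CPM in WT and to 33.2 and 34.2 CPM in Prx-cKO. The alpha genes summed to 4.73 and 6.48 CPM in WT and to 4.0 and 2.86 CPM in Prx-cKO. The genotypes overlapped for gamma and did not overlap for beta or alpha. Leaving out the pseudogene Pcdhgb8, the gamma members summed to 309.3 and 263.2 CPM in WT and to 304.0 and 181.6 CPM in Prx-cKO. Fitted as 1 summed row each, an alternative added after seeing the data, the log2 fold changes of Prx-cKO over WT were -0.13 (SE 0.15) for gamma, -0.31 (SE 0.16) for beta and -0.74 (SE 0.35) for alpha.

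**Figure D1:**
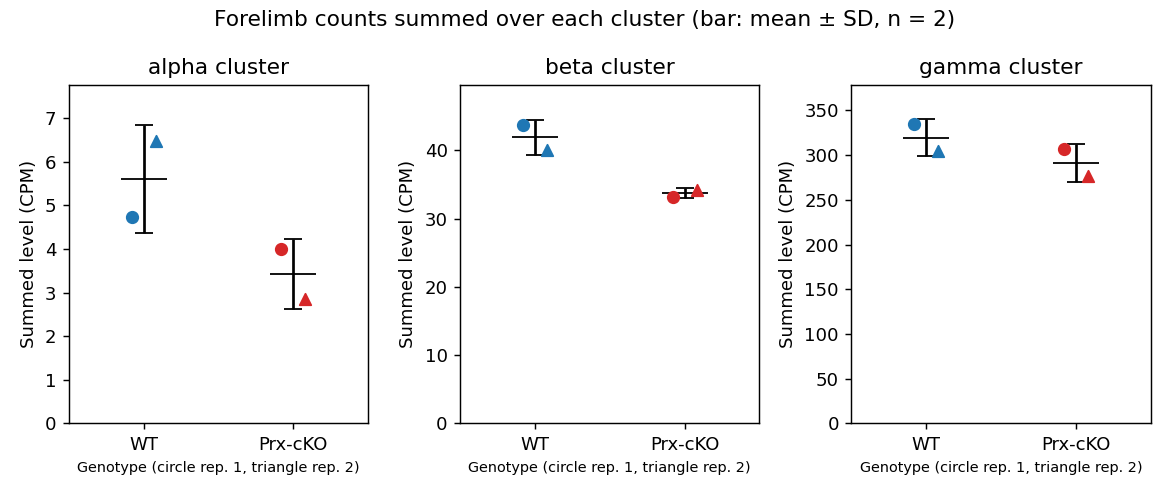
Summed level of each array in the 4 forelimb libraries, in CPM on axes that start at 0, by genotype; points are libraries and bars the mean ± SD of 2. Gamma sums lie between 276.3 and 334.4 CPM and overlap between genotypes, whereas both Prx-cKO beta sums (33.2 and 34.2 CPM) lie below both WT sums (40.1 and 43.7 CPM).

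Of the 57 members, 45 had enough counts to be tested in the forelimb, 3 alpha, 21 beta and 21 gamma. None passed an adjusted p of 0.05 in edgeR's quasi-likelihood test, and neither did any other of the 19987 genes tested, a background of 0%. At an unadjusted p under 0.05 the edgeR test picked 4 members, Pcdha1, Pcdhb9, Pcdhb12 and Pcdhga1, against a background of 10.5% of all genes. DESeq2 called 1 member, Pcdhga1, against 1.95% of all genes. Among the tested members 34 log2 fold changes were negative and 11 positive, with a median of -0.31, and the median of all tested genes was -0.03. With any 1 library left out, 1 library remained in its group, so calls of single members from those fits are not given.

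Counts of the gamma array, with Pcdhgb8 included, had a similar total in each library but were distributed differently over its rows. The part of read assignment from the shared exons in this was not tested. A single row led in each forelimb library, and it was a different one every time. In WT replicate 1 the leader was Pcdhgc4, with 43.1% of the gamma counts (95% exact binomial interval 42.3 to 43.9%). Pcdhgb1 led in WT replicate 2 with 38.6% (38.0 to 39.3%). Pcdhgb2 led in Prx-cKO replicate 1 with 26.7% (25.7 to 27.6%). The pseudogene Pcdhgb8 led in Prx-cKO replicate 2 with 34.3% (33.5 to 35.1%). These intervals cover counting error only, as the reads carry no molecular identifiers and can be copies of 1 molecule. They do not cover how reads from shared exons were assigned. The 3 highest rows together held 75.6% and 58.8% of gamma counts in WT and 60.7% and 60.9% in Prx-cKO.

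Summed over subgroups, the same unevenness appeared between replicates of 1 genotype. The gamma C-type genes took 63.3% of gamma counts in WT replicate 1 and 8.97% in WT replicate 2, and 30.8% and 11.5% in the Prx-cKO replicates. The gamma B rows took 14.3% and 67.2% in WT and 35.3% and 52.9% in Prx-cKO. Both subgroups overlapped between genotypes. The gamma A genes took 22.5% and 23.9% in WT and 33.9% and 35.6% in Prx-cKO, and did not overlap. The gamma A genes other than Pcdhga1 summed to 73.8 and 70.5 CPM in WT and to 64.6 and 46.5 CPM in Prx-cKO.

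**Figure D2:**
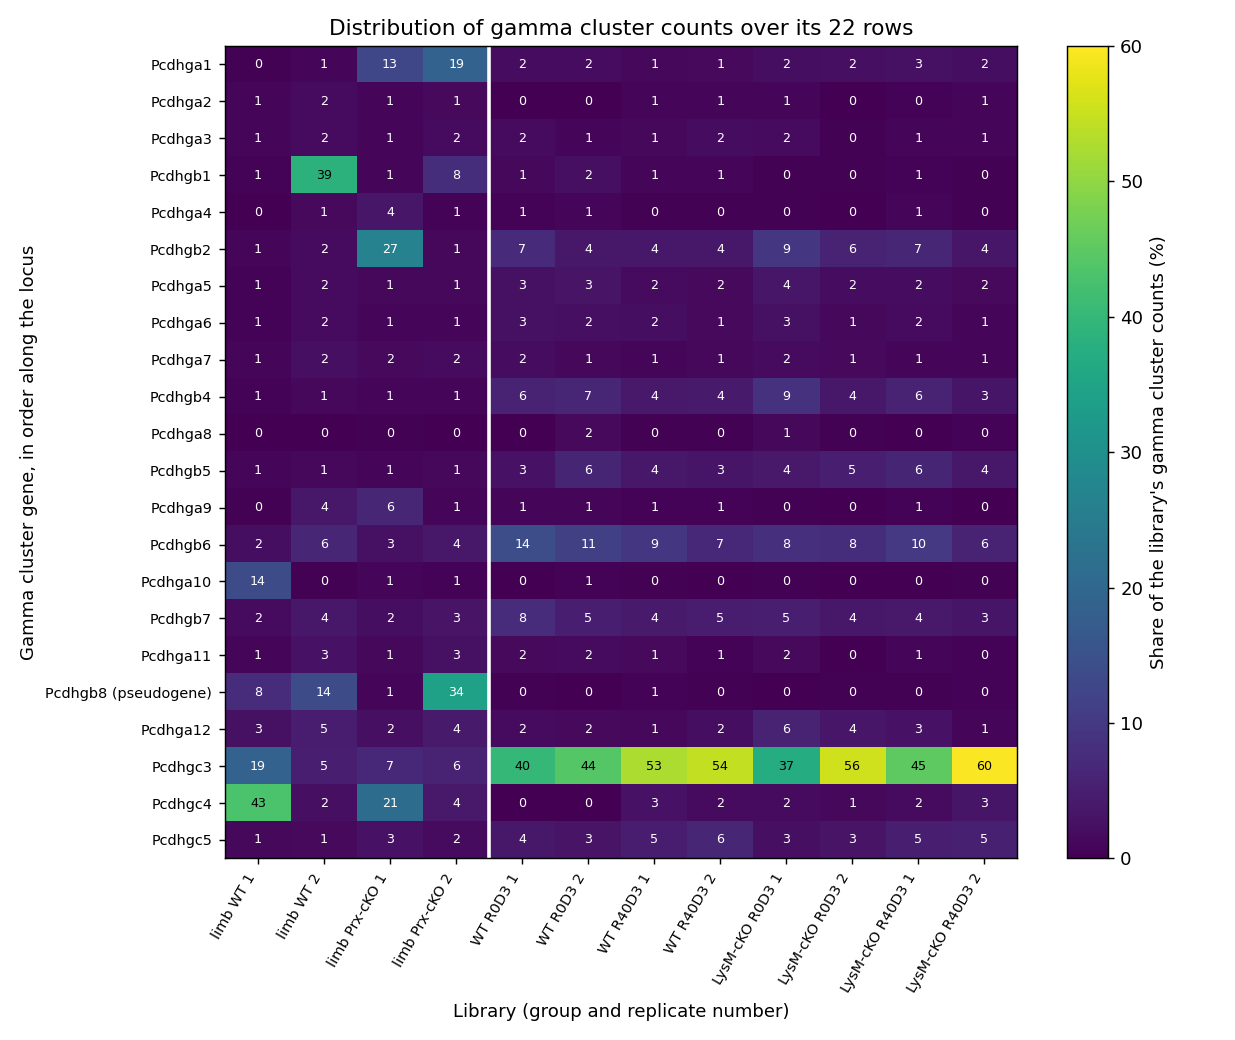
Share of each library's gamma counts held by each of the 22 gamma rows (vertical, in order along the locus) in the 12 libraries (horizontal, forelimb left of the white line), as colour and rounded percentages. The brightest cell moves from row to row among the 4 forelimb libraries, whereas Pcdhgc3 leads in all 8 cultures with 37.1 to 59.8%.

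Levels of single gamma genes showed the same pattern. Pcdhgc4, the C-type gene with the highest length-scaled WT mean (13.6 CPM per kb), measured 144 and 7.57 CPM in WT and 64.9 and 11.3 CPM in Prx-cKO. Its replicates differed more within each genotype than the genotypes did, and the log2 fold change was -1.0 (SE 1.38). Pcdhgb1, the highest gamma B member in WT at 10.4 CPM per kb, measured 1.91 and 118 CPM in WT and 3.30 and 21.8 CPM in Prx-cKO. The 2 WT libraries thus enclosed both Prx-cKO libraries, and its log2 fold change was -2.23 (SE 1.69). Pcdhgb2 measured 2.72 and 5.57 CPM in WT and 81.6 and 3.41 CPM in Prx-cKO. A single library, Prx-cKO replicate 1, set its log2 fold change of 3.32 (SE 1.38), which was -0.29 without that library. Pcdhga10, the gamma A gene with the highest WT level (4.97 CPM per kb), measured 45.7 and 1.39 CPM in WT and 3.41 and 1.86 CPM in Prx-cKO. Here WT replicate 1 stood alone, and the log2 fold change of -3.19 (SE 1.52) became 0.84 without it. In GENCODE M21 every exonic base of Pcdhga10 is also exonic in another gene.

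Pcdhga1, the first gene of the gamma array, differed from these genes in that its replicates were alike. It measured 1.44 and 2.23 CPM in WT and 39.3 and 51.8 CPM in Prx-cKO, from 61, 160, 1131 and 2648 counts. The genotypes did not overlap, and the log2 fold change was 4.61 (SE 0.31), between 4.32 and 4.99 when each library was left out in turn. Part of its exonic sequence is shared with the other gamma rows, as for the whole array. Pcdhga2 and Pcdhga3, the next 2 genes, had log2 fold changes of -0.34 (SE 0.39) and -0.16 (SE 0.39), and both overlapped between genotypes.

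**Figure D3:**
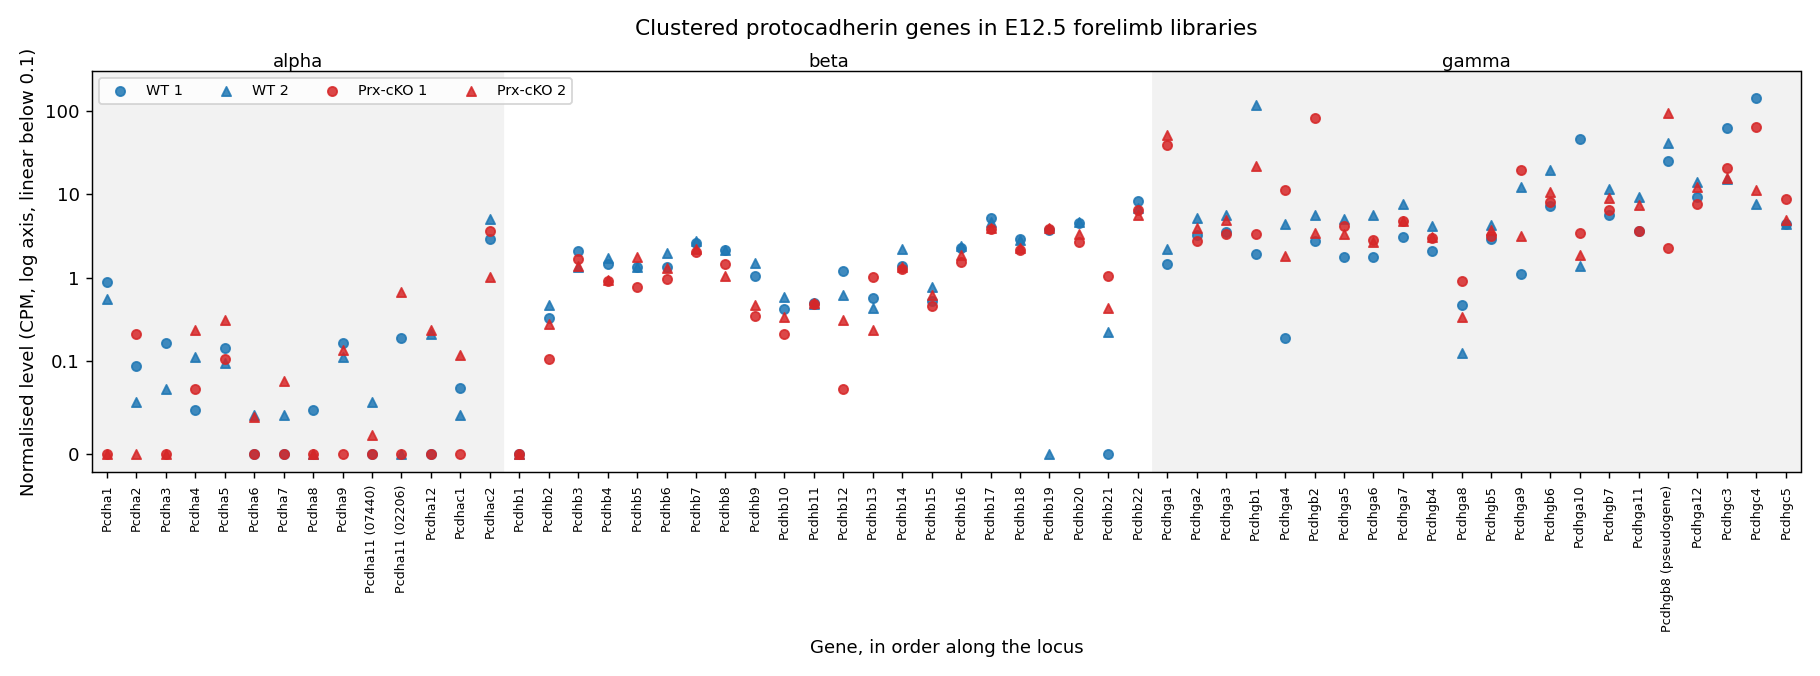
Level of each clustered protocadherin and of the pseudogene Pcdhgb8 in the 4 forelimb libraries, in CPM on a logarithmic axis that turns linear below 0.1, against order along the locus. The 4 points of a beta gene mostly lie close together, those of Pcdhgb1, Pcdhgb2, Pcdhga10 and Pcdhgc4 are spread widely with replicates apart, and the Prx-cKO points of Pcdhga1 (39.3 and 51.8 CPM) lie far above its WT points (1.44 and 2.23 CPM).

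The other C-type gamma genes varied less. Pcdhgc3 measured 63.1 and 15.4 CPM in WT and 20.8 and 15.6 CPM in Prx-cKO, so WT replicate 1 was high and the other 3 libraries were similar (log2 fold change -1.11, SE 0.65, and 0.21 without that library). Pcdhgc5 measured 4.37 and 4.42 CPM in WT and 8.70 and 4.97 CPM in Prx-cKO. Both Prx-cKO values exceeded both WT values, 1 of them narrowly (log2 fold change 0.62, SE 0.36). The gamma B genes Pcdhgb4 and Pcdhgb6, which were among the highest members in the cultures, overlapped between genotypes in the forelimb. Their log2 fold changes were -0.07 (SE 0.43) for Pcdhgb4 and -0.54 (SE 0.50) for Pcdhgb6.

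How far replicates of 1 genotype lay apart can be set beside all genes. Among rows with at least 20 counts in 1 library of the group, 14 of 22 gamma rows (63.6%) differed more than 2-fold between the WT replicates, as did 17.95% of all rows. In Prx-cKO it was 8 of 22 gamma rows (36.4%) and 8.42% of all rows. Beta genes gave 1 of 20 in WT and 3 of 18 in Prx-cKO, and the few alpha genes with enough counts gave 0 of 2 and 2 of 2. Over all 4 libraries the highest level exceeded the lowest more than 5-fold in 9 of 22 gamma rows (Pcdhga1, Pcdhga4, Pcdhga8, Pcdhga9, Pcdhga10, Pcdhgb1, Pcdhgb2, Pcdhgb8 and Pcdhgc4), in 3 of 21 beta genes (Pcdhb12, Pcdhb19 and Pcdhb21), in 2 of 3 alpha genes (Pcdha1 and 1 Pcdha11 identifier) and in 10.5% of all rows. No test was made of these counts, because the rows of an array share exons.

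The beta genes, each a complete adhesion protein without the shared tail, were mostly lower in Prx-cKO by small amounts, with log2 fold changes from -1.96 to 2.29. Of 22, 21 were tested, 18 had a negative log2 fold change, and the median was -0.39 against -0.03 for all genes. Under library size alone the median of all genes moved to -0.13 and that of the beta genes to -0.49, and 18 of 21 were again negative. In 14 of the 21 both Prx-cKO libraries were below both WT libraries, with 21% of all tested genes in that position. In 2 of the 21, Pcdhb19 and Pcdhb21, both were above, with 22.2% of all genes in that position. As the forelimb values led to the choice of these genes, nothing is read from those shares.

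Pcdhb20, the beta gene with the highest length-scaled WT level (1.30 CPM per kb), measured 4.54 and 4.70 CPM in WT and 2.68 and 3.35 CPM in Prx-cKO. The groups did not overlap (log2 fold change -0.60, SE 0.31). Pcdhb22, at the end of the array, measured 8.32 and 6.91 CPM in WT and 6.40 and 5.64 CPM in Prx-cKO (-0.34, SE 0.27), and Pcdhb17 had 5.17 and 4.71 against 3.83 and 3.99 CPM (-0.33, SE 0.29). These 3 genes had the highest WT levels per kilobase of the array. Their Prx-cKO means were at 65.3% of WT for Pcdhb20 and at 79.1% for both Pcdhb22 and Pcdhb17. Larger differences occurred at lower levels. Pcdhb12 had the lowest log2 fold change, -1.96 (SE 0.76), from 1.20 and 0.61 CPM in WT and 0.07 and 0.31 CPM in Prx-cKO. Most of its exonic bases are also exonic in another gene. Pcdhb9 measured 1.04 and 1.48 CPM in WT and 0.35 and 0.47 CPM in Prx-cKO (-1.60, SE 0.51).

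The beta genes that went the other way were irregular. Pcdhb21 had the highest log2 fold change, 2.29 (SE 1.00), from 0 and 0.22 CPM in WT and 1.04 and 0.43 CPM in Prx-cKO. Pcdhb19 measured 3.69 and 0 CPM in WT and 3.83 and 3.97 CPM in Prx-cKO, so that 1 WT library with no count stood apart from 3 similar libraries. Pcdhb1, the first gene of the array, had no counts in any of the 12 libraries. A floor of 3 counts corresponds to 0.0418 to 0.104 CPM in the forelimb libraries and 0.157 to 0.187 CPM in the cultures.

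Position along the beta array was weakly related to level and difference. Across the 22 genes Spearman's rho between order and WT level per kilobase was 0.24, and across the 21 tested genes it was 0.31 between order and log2 fold change. The genes share their libraries, so both are descriptions. Taf7, a transcription initiation factor gene, and Slc25a2, a mitochondrial carrier gene, lie between the beta and gamma arrays. Taf7 measured 32.3 and 30.9 CPM in WT and 25.9 and 24.6 CPM in Prx-cKO (log2 fold change -0.32, SE 0.16), a difference of the same size as that of the beta sum. Slc25a2 measured 0.61 and 0.35 CPM in WT and 0.17 and 0.29 CPM in Prx-cKO (-0.88, SE 0.65).

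**Figure D4:**
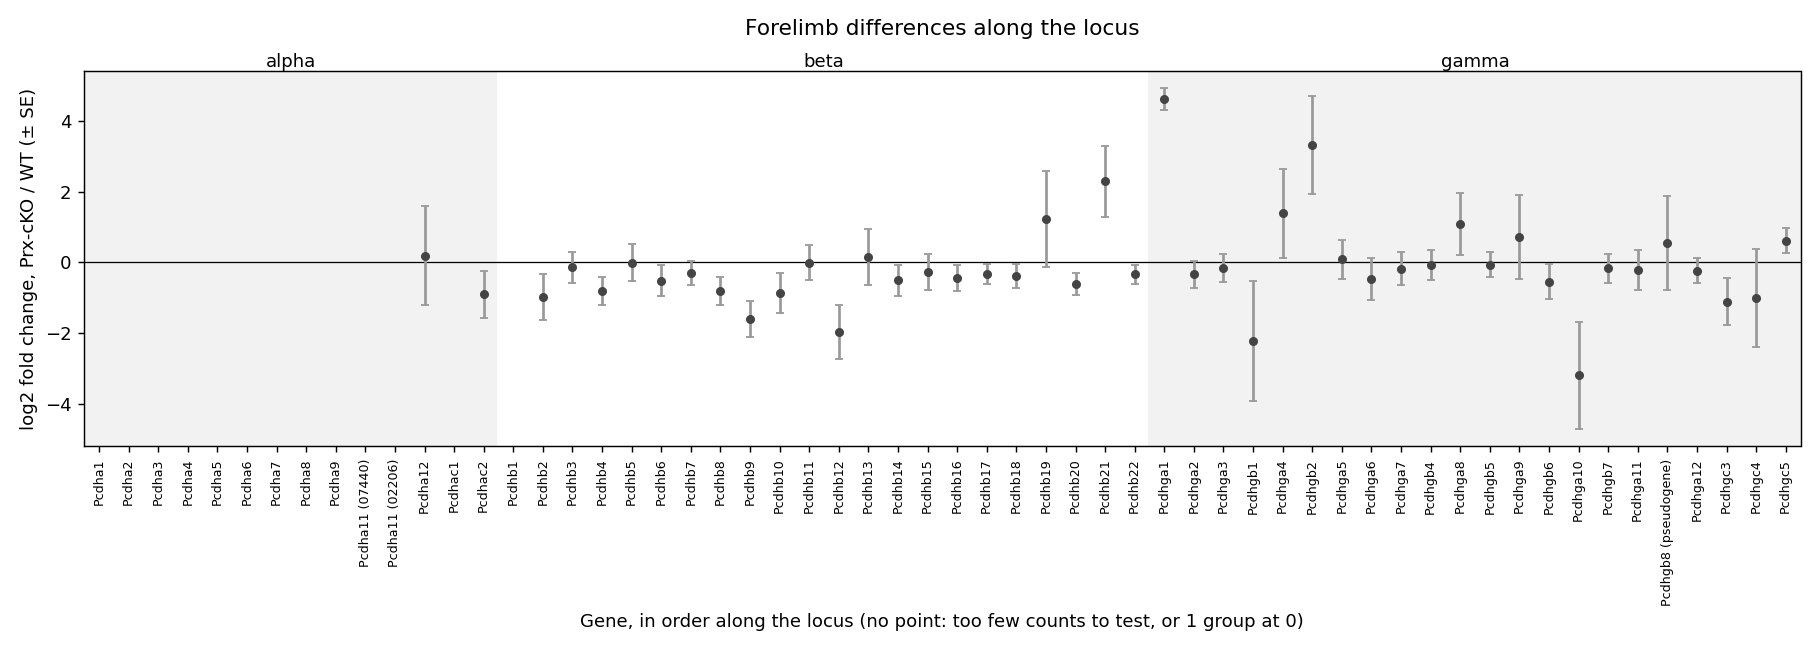
Log2 fold change of Prx-cKO over WT forelimb (vertical, ± SE) for each tested gene in order along the locus; genes with too few counts, or with 1 genotype at 0, have no point. Most beta genes lie a little below 0 (median -0.39), and the gamma array alternates between genes near 0 and genes with large errors, apart from Pcdhga1 at 4.61.

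Alpha genes were barely detected. The 12 alpha variable genes averaged between 0.0209 and 0.73 CPM in WT, and 3 of them had no counts in either Prx-cKO library. Only Pcdha1 and Pcdha12 could be tested. Pcdha1, the first gene of the whole locus, measured 0.90 and 0.56 CPM in WT and 0 in both Prx-cKO libraries. Its WT mean was 8.92-fold a floor of 3 counts per Prx-cKO library. That floor covers counting error only, not the spread between replicates or the assignment of reads from shared exons. Pcdha12 measured 0 and 0.21 CPM in WT and 0 and 0.23 CPM in Prx-cKO, so each genotype had 1 library without a count. Pcdhac2, a C-type gene, had the highest alpha level in each library and measured 2.91 and 5.09 CPM in WT and 3.62 and 1.02 CPM in Prx-cKO. The genotypes overlapped (log2 fold change -0.90, SE 0.66). Pcdhac1, the other alpha C-type gene, averaged 0.0563 CPM in WT and 0.0587 CPM in Prx-cKO.

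Lists of related genes were tallied by the same fit. Of 12 non-clustered protocadherins, which lie outside the arrays, none passed edgeR's adjusted test in the forelimb, and 2 had an unadjusted p under 0.05. Pcdh19 measured 18.6 and 18.5 CPM in WT and 26.5 and 29.8 CPM in Prx-cKO. Pcdh20 measured 1.89 and 1.42 CPM in WT and 0.28 and 0.67 CPM in Prx-cKO. The median log2 fold change of the 12 was -0.08. Of 23 genes for chromatin looping, cohesin and DNA methylation, none passed and 2 had an unadjusted p under 0.05. Dnmt3a, a de novo DNA methyltransferase, measured 144.6 and 160.0 CPM in WT and 271 and 328 CPM in Prx-cKO (log2 fold change 0.97, SE 0.17). Pds5b, a cohesin regulator, measured 163 and 201 CPM in WT and 136 and 126 CPM in Prx-cKO (-0.47, SE 0.17). Ctcf itself had a log2 fold change of -0.16 (SE 0.19), and its genotypes overlapped. Of 21 genes for partners and processing enzymes of the clustered proteins, none passed, 1 had an unadjusted p under 0.05 and the median was 0.11. Of 16 genes that flank or lie within the locus, among them the non-clustered Pcdh1, which both lists hold, none passed, 3 had an unadjusted p under 0.05 and the median was 0.00.

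Summed markers of several, though not all, other cell types in the limb differed between genotypes without overlap. The 16 neuron markers summed to 77.4 and 65.9 CPM in WT and 89.0 and 105 CPM in Prx-cKO, with Prph at 0 in 1 Prx-cKO library. The 10 Schwann cell markers summed to 140 and 151 CPM in WT and 180 and 220 CPM in Prx-cKO, with S100b at 0 in the same library. Skeletal muscle (386 and 363 against 1012 and 489 CPM), endothelial (198 and 183 against 270 and 265 CPM) and myeloid markers (52.7 and 53.2 against 114 and 104 CPM) were also higher in Prx-cKO, none of them at 0. Single markers did not all follow these sums. Log2 fold changes were positive for 11 and negative for 4 of 15 tested neuron markers. They were positive for 9 of 10 Schwann cell markers, 11 of 12 muscle markers, and all 9 endothelial and all 10 myeloid markers. Erythroid (4365 and 3056 against 4112 and 3242 CPM) and surface ectoderm markers (719.7 and 920.1 against 887.2 and 973.1 CPM) overlapped between genotypes. The 10 limb mesenchyme markers summed to 1886 and 2174 CPM in WT and 1341 and 1440 CPM in Prx-cKO. Of them, 7 had a negative log2 fold change and 3 (Twist1, Msx1 and Msx2) a positive one. The beta sum was lower in the same libraries as the mesenchyme marker sum, and the part of cell composition in it was not tested. Its part in the changing gamma leader was not tested either.

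The cultures expressed a narrower part of the family. Of the 57 members 15 had enough counts to be tested, namely 2 beta, 4 gamma A, 5 gamma B, all 3 gamma C-type genes and Pcdhac2. Of the alpha variable genes, 7 of 12 had no counts in any culture and none exceeded 8 counts over all 8 libraries. The gamma rows summed to between 27.0 and 46.4 CPM, the beta genes to between 1.48 and 3.85 CPM and the alpha genes to between 1.71 and 3.57 CPM. In contrast to the forelimb, 1 gene led in every culture. Pcdhgc3 held 40.0% and 44.1% of gamma counts in WT R0D3, 52.7% and 54.5% in WT R40D3, 37.1% and 55.8% in LysM-cKO R0D3 and 45.1% and 59.8% in LysM-cKO R40D3.

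Averaged over the 8 libraries, the highest levels were those of Pcdhgc3 (16.8 CPM), Pcdhgb6 (3.02 CPM), Pcdhac2 (2.85 CPM), Pcdhgb2 (1.83 CPM) and Pcdhgb4 (1.75 CPM). Per kilobase Pcdhgc3 stood at 3.05, Pcdhgb6 at 0.64 and Pcdhac2 at 0.48 CPM. Pcdhgc3 was thus the highest by a wide margin on both scales, and its lowest library (10.8 CPM) exceeded the highest library of Pcdhgb6 (3.84 CPM). Of the 5499 exonic bases of Pcdhgc3, 1821 belong to no other annotated gene. The part of read assignment in its level was not tested. Pcdhgb6 (2.30 to 3.84 CPM) and Pcdhac2 (1.71 to 3.57 CPM) overlapped. So did Pcdhgb2 (1.1 to 2.99 CPM) and Pcdhgb4 (1.15 to 2.70 CPM). Of the rows that led a forelimb library, Pcdhgb2 was thus among the highest in the cultures, and Pcdhgb1 measured 0.12 to 0.68 CPM.

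The comparison of R40D3 with R0D3 addresses what changed with osteoclast differentiation, and all 12 osteoclast markers were called higher at R40D3 in each genotype. In WT cultures 1 of the 15 tested members passed edgeR's adjusted threshold, with 16.9% of all genes called in either direction and 11.4% called higher. Few members were tested and most had low levels, so nothing is read from that share. The member called was Pcdhgc4. It had 0 and 1 counts at R0D3 and 21 and 13 counts at R40D3, or 0 and 0.06 CPM against 1.1 and 0.79 CPM. The ratio of pooled levels was 31.9, with a 95% counting interval of 5.34 to 1295, and the edgeR adjusted p was 0.0178. The call was lost when any of the 4 compared libraries was left out, which leaves 1 library in a group. The log2 fold change of Pcdhgc4 ran from 3.79 to 7.07 with 1 library left out. This change started from nearly no reads and ended at about 1 CPM.

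The other gamma C-type genes were also higher at R40D3. Pcdhgc3 measured 10.8 and 12.6 CPM at R0D3 and 19.0 and 25.3 CPM at R40D3 in WT, without overlap. Its log2 fold change was 0.92 (SE 0.27), with an edgeR adjusted p of 0.0533. With the replicate number as a block the edgeR adjusted p was 0.000993. Pcdhgc5 measured 1.05 and 0.87 CPM at R0D3 and 1.67 and 2.99 CPM at R40D3, with a log2 fold change of 1.25 (SE 0.40) and an edgeR adjusted p of 0.0716, and of 0.0324 with the block. The log2 fold change of Pcdhgc5 ran from 0.75 to 1.60 with 1 library left out. The blocked edgeR fit called 3 members in WT, all C-type genes of the gamma array, with 28.3% of all genes called. DESeq2 called 2, Pcdhgc4 and Pcdhgc3, with 16.9% of all genes called. As few members were tested, nothing is read from these shares either.

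The other 12 tested members did not follow in WT. The gamma A genes had a median log2 fold change of 0.07, the gamma B genes of 0.02, and the 2 beta genes values of 0.07 and 0.11. Pcdhac2, the tested alpha C-type gene, measured 2.45 and 2.67 CPM at R0D3 and 3.14 and 1.71 CPM at R40D3, with overlap (log2 fold change -0.05). None of these 12 had an unadjusted p under 0.05 in edgeR, which the 3 gamma C-type genes and 30.3% of all genes did. With few members tested, nothing is read from that share. The calls do not set the family apart from other genes. The summed gamma row, in which Pcdhgc3 led, measured 27.0 and 28.5 CPM at R0D3 and 36.1 and 46.4 CPM at R40D3 in WT. Its level was 1.49-fold higher (log2 fold change 0.57, SE 0.14, edgeR adjusted p 0.0338) in the alternative added after seeing the data. In LysM-cKO cultures the summed gamma row was 1.18-fold higher at R40D3 in that alternative (log2 fold change 0.24, SE 0.14, edgeR adjusted p 0.377). The gamma C-type share of gamma counts in WT was 43.8% and 47.4% at R0D3 and 60.4% and 62.6% at R40D3. In LysM-cKO it was 41.45% and 60.08% at R0D3 and 51.99% and 68.62% at R40D3, with overlap.

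**Figure D5:**
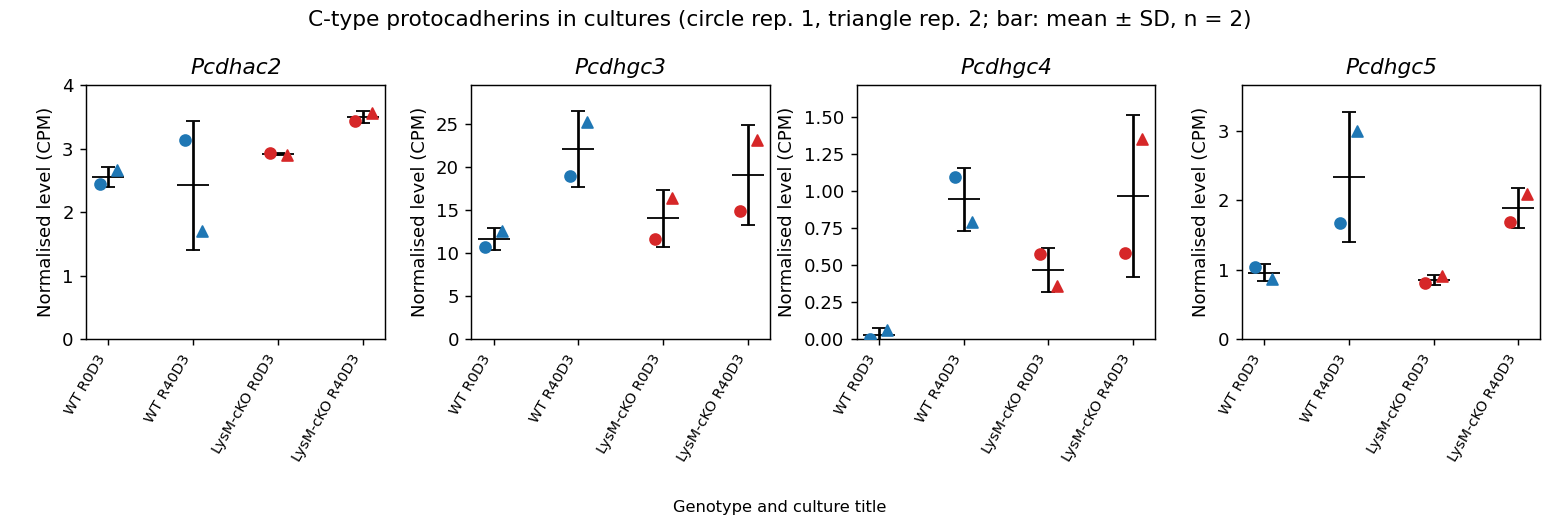
Level of 4 C-type genes in the 8 cultures, in CPM on axes that start at 0, by genotype and culture title; points are libraries and bars the mean ± SD of 2. Pcdhgc3, Pcdhgc4 and Pcdhgc5 lie higher at R40D3 than at R0D3 in WT without overlap, and Pcdhac2 overlaps.

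In LysM-cKO cultures none of the 15 members passed in edgeR, with 10.1% of all genes called and 6.99% called higher, and DESeq2 called none, with 11.7%. Pcdhgc5 was the member with an unadjusted p under 0.05 in edgeR, where the background was 24%. It measured 0.80 and 0.91 CPM at R0D3 and 1.69 and 2.1 CPM at R40D3 (log2 fold change 1.13, SE 0.42, edgeR adjusted p 0.15). Pcdhgc3 measured 11.7 and 16.4 CPM at R0D3 and 14.97 and 23.2 CPM at R40D3, and the groups overlapped. Each R40D3 library exceeded the R0D3 library of its own number. The log2 fold change was 0.44 (SE 0.26, edgeR adjusted p 0.372), and with the replicate block the edgeR adjusted p was 0.0439, the single member called, with 21.3% of all genes called. Pcdhgc4 measured 0.57 and 0.36 CPM at R0D3 and 0.58 and 1.36 CPM at R40D3 (0.99, SE 0.59, edgeR adjusted p 0.363).

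The difference between genotypes in the R40D3 response was tested as an interaction. No gene passed in edgeR, a background of 0%, and at an unadjusted p under 0.05, which 1.77% of all genes reached, 1 member did. That was Pcdhgc4, with a log2 difference of -3.70 (SE 1.39, edgeR adjusted p near 1), and its WT R0D3 libraries held 0 and 1 counts. For Pcdhgc3 the log2 difference was -0.49 (SE 0.37) and for Pcdhgc5 it was -0.12 (SE 0.60). The responses of WT and LysM-cKO were therefore not shown to differ.

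Between genotypes at a fixed culture title no member passed. At R40D3 edgeR called 0 of 15, with 0.0143% of all genes called, and no member had an unadjusted p under 0.05, which 7.47% of all genes did. Log2 fold changes of LysM-cKO over WT ran from -0.51 to 0.64. DESeq2 called none of the members there, with 0.164% of all genes called, and the blocked edgeR fit called none, with 0.214%. At R0D3 edgeR called 0 of 15, with 0.0143% of all genes called, and 2 members had an unadjusted p under 0.05 (background 4.42%). These were Pcdhgc4 (log2 fold change 3.68, SE 1.26) and Pcdhga12 (1.66, SE 0.57, from 0.47 and 0.44 CPM in WT and 1.78 and 1.09 CPM in LysM-cKO). Both had edgeR adjusted p values of 0.997. DESeq2 called no member at R0D3, with 0.0499% of all genes called, and neither did the blocked edgeR fit, with 0.0214%.

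Related genes in the cultures moved as follows from R0D3 to R40D3. Of the non-clustered protocadherins 4 of 12 were tested and 1 rose in WT. That was Pcdh7, at 13.9 and 13.8 CPM at R0D3 and 33.4 and 44.6 CPM at R40D3 (log2 fold change 1.49, SE 0.22, edgeR adjusted p 0.00499). None of the 4 passed in LysM-cKO. Of 23 looping, cohesin and methylation genes, 2 rose in WT and none fell, and 1 rose in LysM-cKO, with 11.4% and 6.99% of all genes called higher. Dnmt3a rose in WT from 293 and 244 to 488 and 546 CPM (0.94, SE 0.18, edgeR adjusted p 0.0129). Rest, a repressor of neuronal genes, rose in both genotypes, by a log2 fold change of 0.40 (SE 0.10) in WT and 0.39 (SE 0.10) in LysM-cKO, with edgeR adjusted p values of 0.0296 and 0.0471. Of 19 tested partner and processing genes, 2 fell in WT, the kinase gene Fyn (-0.63, SE 0.12) and Abi2 (-0.58, SE 0.13), a subunit of the actin-regulating WAVE complex. Over all genes, 16.9% were called in either direction in WT and 10.1% in LysM-cKO. Fyn fell in LysM-cKO as well (-0.65, SE 0.12, edgeR adjusted p 0.0152). Of 15 tested genes around the locus, 2 rose and 3 fell in WT, and 2 fell in LysM-cKO.

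Neuron markers were nearly absent from the cultures, with 12 to 14 of 16 at 0 counts and sums of 1.78 to 5.35 CPM. Fibroblast markers were present, and were lower in 1 pair of libraries. They summed to 1491 to 1950 CPM in the WT cultures and to 1884 and 1748 CPM in replicate 1 of LysM-cKO at R0D3 and R40D3, but to 627 and 537 CPM in replicate 2, with Dcn at 0 in the latter. Lum was at 0 in both and also in WT R0D3 replicate 2 and WT R40D3 replicate 1. The gamma A sum was 7.24 and 4.81 CPM in replicate 1 and 3.64 and 4.004 CPM in replicate 2 of those groups, and so was lower in the same pair. Pcdhgc3 was higher in that pair, at 16.4 and 23.2 CPM against 11.7 and 14.97 CPM in replicate 1. It was also higher in replicate 2 of both WT groups, at 12.6 against 10.8 CPM and 25.3 against 19.0 CPM, where the fibroblast sums were 1491 against 1672 CPM and 1885 against 1950 CPM. The part of fibroblast content in these values was not tested.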

How the data were processed

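The authors deposited raw read counts by Ensembl gene in 3 tables, of which 1 held the forelimb libraries and the other two the culture replicates. Per the submitters' processing notes, FastQC 0.11.2, Trimmomatic 0.36, HISAT2 2.1.0 and DESeq2 1.12.4 were used, with build GRCm38. The counting tool, annotation release and strand setting are not given in the sources used here.

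Symbols were matched for 99.6% (forelimb) and 99.5% (culture) of identifiers. Positions and exon overlaps came from GENCODE M21. Counts were tested in R 4.3.3 with edgeR 4.0.16 (filterByExpr with a minimum count of 10, TMM, quasi-likelihood test with legacy = FALSE, two-sided, Benjamini-Hochberg adjustment over all genes tested, calls at 0.05), 4 forelimb libraries alone and 8 cultures together. Each SE was derived from the log2 fold change and its F statistic. The genes tested numbered 19987 in the forelimb and 14030 in the cultures. DESeq2 1.42.0, other scalings, no filter, legacy = TRUE, left-out libraries and a replicate block were alternatives. The fits were tested on simulated data with 100 genes changed 2-fold and 100 changed 4-fold. The forelimb fit recovered 12 and 56 of them, with 1 false call. The fit of R40D3 against R0D3 in WT cultures recovered 61 and 84, with 7 false calls. The spread of each simulated gene followed the trend over all genes at its level. These figures therefore do not carry over to rows that vary more, such as many gamma rows in the forelimb.

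Deviations of same-numbered culture libraries from their group means correlated at 0.343 to 0.609 in all 6 pairs of groups. The main fit and the interaction took no account of this, and the replicate block was an alternative to the main fit. The sample labels state no pairing, though culture replicates of each number were deposited in a table of their own. Replicate pairs differed beyond sampling noise in all 6 groups, with chi-square per degree of freedom from 11.1 to 148.

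Members and gene lists were chosen with earlier results of these data known. Values by library are given for Impdh2 and, in each subgroup, for the members with the highest WT level per kilobase and the highest and lowest forelimb log2 fold change. Added to these were the 5 largest absolute changes, all C-type members, members called in cultures, the 5 highest in cultures, Taf7, Slc25a2 and up to 3 genes a list by p. Other members named (Pcdhga2, Pcdhga3, Pcdhga12, Pcdhgb8, Pcdhb9, Pcdhb17, Pcdhb19, Pcdhb22 and Pcdhb1) and Ctcf were chosen after their values were seen. No sequences are shown.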

Additional observations from a re-analysis of the deposited data

How the results depend on the processing

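The forelimb count of called genes was 0 in the edgeR fit and 390 in DESeq2, and ran from 0 to 605 with 1 library left out. The count of called protocadherins was 0, and 1 in DESeq2, and ran from 0 to 3 with 1 library left out. In WT cultures, R40D3 against R0D3, the count of called protocadherins was 1, became 2 under library size alone, 2 in DESeq2, 2 with only the 4 compared libraries and 3 with the replicate block, and ran from 0 to 2 with 1 library left out. It was 0 without WT R0D3 replicate 1, WT R0D3 replicate 2 or WT R40D3 replicate 2, and 2 without either LysM-cKO R40D3 replicate. In LysM-cKO cultures it was 0, and 1 with the replicate block. The block changed no other call of a member. Forelimb numbers, whose 2 pairs correlated at 0.261, are taken to share only a number.

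The median over the 2 tested of 12 alpha variable genes was -3.95, and -0.011 without the filter and -3.55 in DESeq2, and ran from -8.07 to 1.42 with 1 library left out. It rests on the fitted value of Pcdha1, whose Prx-cKO counts are 0, and is not interpretable. The beta median was -0.49 under library size alone and ran from -0.55 to -0.34 with 1 library left out. The left-out ranges were -0.48 to 0.64 for gamma A, -0.55 to 0.50 for gamma B and -1.64 to 0.39 for C-type genes, whose median was -0.55 with the replicate block.

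Forelimb log2 fold changes turned direction with 1 library left out for Pcdha12 (-0.53 to 0.88), Pcdhga10 (-4.15 to 0.84), Pcdhgb1 (-4.18 to 2.74), Pcdhgb2 (-0.29 to 4.28), Pcdhgc4 (-2.73 to 2.29), Pcdhgc3 (-1.79 to 0.21), Pcdhgb4 (-0.48 to 0.54, and 0.0073 with the replicate block) and Pcdhgb6 (-1.11 to 0.36). The cause of these changes was not tested. Having 2 libraries per group limits the precision throughout, and each fit with 1 library left out has 1 library in a group.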
